A study of Mus musculus with 847 samples.

Results

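Reactive astrocyte genes are followed here as 7 genes named by symbol: Gfap, Vim, Serpina3n, Cd44, Osmr, Timp1 and Aspg. They are 7 of the 21076 genes in a table of read counts, and each symbol matched 1 row. The table covers 847 libraries of unstranded mRNA sequencing, 1 for each dissected brain region and mouse, from 15 regions of 59 C57BL/6JN mice. There were 7 ages. Of these, 3, 12, 15 and 18 months had 5 mice of each sex, the 21-month group had 5 females with 6 males, the 26-month group was 5 males and the 28-month group was 3 males. The mice of 3, 15, 18 and 21 months hold the numbers 16 to 56. Those of 12, 26 and 28 months all have numbers outside that block. A difference between these ages and 3 months thus cannot be told apart from one between number blocks. No allele, agent or treatment is given for any group, and the tissue was homogenised whole, so each library mixes all cells of its region. The corpus callosum, a tract of myelinated axons, served as white matter. Motor cortex, visual cortex, entorhinal cortex, hippocampus (anterior), hippocampus (posterior) and caudate putamen served as 6 grey matter regions.

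Astrocytes are the star-shaped support cells of the brain that take up transmitters, feed neurons and contact vessels. After injury, inflammation or with age they become reactive, a state in which they enlarge and switch on a set of structural, secreted and receptor genes. Gfap and Vim encode the intermediate filament proteins of the astrocyte skeleton. Serpina3n encodes a secreted inhibitor of serine proteases, and Timp1 a secreted inhibitor of matrix metalloproteinases. Cd44 is the cell surface receptor for hyaluronan and also binds osteopontin. Osmr is the receptor subunit for oncostatin M, which pairs with gp130 and signals through STAT3, a transcription factor that drives Gfap in astrocytes. Aspg encodes an asparaginase. Vim, Cd44, Osmr and Timp1 are also made by vascular, meningeal or microglial cells, so a bulk value is not that of astrocytes alone.

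The promoter windows of Gfap and Serpina3n, the genes compared most closely below, are shown first. They run from 250 bases before to 10 bases after the RefSeq start on GRCm38.p6, at chr11:102897191-102897450 on the minus strand for Gfap and at chr12:104406458-104406717 on the plus strand for Serpina3n, and capitals mark a STAT motif. The RefSeq start of Gfap lies within the longer GENCODE gene given below.
Gfap: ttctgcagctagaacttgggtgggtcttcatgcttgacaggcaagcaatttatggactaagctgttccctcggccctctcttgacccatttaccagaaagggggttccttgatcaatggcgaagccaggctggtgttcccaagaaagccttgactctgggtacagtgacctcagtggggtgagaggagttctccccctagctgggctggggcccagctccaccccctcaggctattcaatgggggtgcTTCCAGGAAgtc
Serpina3n: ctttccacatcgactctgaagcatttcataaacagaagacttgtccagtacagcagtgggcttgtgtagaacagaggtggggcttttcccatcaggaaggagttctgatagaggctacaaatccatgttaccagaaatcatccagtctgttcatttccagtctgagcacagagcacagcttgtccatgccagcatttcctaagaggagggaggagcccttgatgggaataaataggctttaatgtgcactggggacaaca
The searches took both strands of the 300-base windows, which reach 50 bases past the start, for the STAT motif TTCNNNGAA, the AP-1 motif TGANTCA, the NF-kB motif by its name and the E-box CACGTG. Gfap held 1 STAT match, which spans its start. Such a match was found in 8.30% of the 32851 RefSeq windows. Osmr held 1 AP-1 match, against 7.81% of windows, and Vim held 3 NF-kB matches, of which a pair overlap, against 8.46%. The windows of Serpina3n, Cd44, Timp1 and Aspg held none of these letters, and no member held the E-box, which was in 7.15%. A match is a description of the sequence and not a measured site.

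Depth and labels were checked first. Totals ran from 481444 to 26756735 reads per library, with a median of 6716032, and from 1537845 to 19669697 in the 57 corpus callosum libraries. In corpus callosum the 12 oligodendrocyte markers summed to between 18510 and 25450 CPM (read counts divided by the library's total count, in the usual scaling) at 3 months, against 3463 to 7640 CPM in motor cortex and 5729 to 21820 CPM in caudate putamen, so the caudate dissections held a varying amount of myelin RNA. Choroid plexus epithelium markers also varied in corpus callosum, from 6.98 to 15840 CPM at 3 months, and its 15 astrocyte markers were all present. Corpus callosum libraries held neuronal RNA too, with Snap25 at 2343 ± 412.5 CPM and Rbfox3 at 269.3 ± 23.6 CPM at 3 months (SD, n = 10). Of 11 neuron markers, 8 were lower there than in the mean of the 6 grey regions and 2 higher, with a median of -0.387 log2. The corpus callosum dissections are thus not pure tract. The dissections labelled Choroid Plexus had a median of only 0.546% of reads on Ttr, the main transcript of that epithelium, so they are mixed tissue. By correlation over 2000 genes, 15 libraries lay nearest another region, 10 of them between both hippocampal parts, and the entorhinal library of mouse 52 lay nearest medulla. Slopes were also fitted without 6 libraries that stand apart by their profile or their sex-linked reads.

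Gfap was the most abundant member per length of its transcript. In 3-month corpus callosum it reached 53.1 ± 13.4 CPM per kilobase of exon (SD, n = 10). Vim followed at 8.21 ± 2.58, Serpina3n at 3.06 ± 0.758, Cd44 at 0.587 ± 0.0913, Aspg at 0.541 ± 0.245, Osmr at 0.374 ± 0.155 and Timp1 at 0.243 ± 0.256. At 28 months Gfap stood at 295 ± 56.4 (n = 3) and Serpina3n at 32.3 ± 13.7, which then exceeded Vim at 23.1 ± 6.49. The genes lie at chr11:102887336-102900912 (Gfap), chr2:13573927-13582826 (Vim), chr12:104406729-104414329 (Serpina3n), chr2:102811141-102901665 (Cd44), chr15:6813577-6874969 (Osmr), chrX:20870166-20874735 (Timp1) and chr12:112106679-112127559 (Aspg) in the GENCODE annotation of GRCm38. Serpina3n has near-identical relatives in its cluster, so its reads may be shared with them and its values are uncertain in that respect.

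In young mice Gfap and Serpina3n had different maps. On a log2 CPM scale at 3 months, Gfap was highest in hippocampus (anterior), at 9.09 ± 0.188 (SD, n = 10), and lowest in caudate putamen, at 5.47 ± 1.67 (n = 9). Corpus callosum was ninth of the 15 regions for Gfap, at 7.77 ± 0.339, and did not differ from the subventricular zone above it or cerebellum below it beyond the larger SD of the pair. For Gfap, 3 of the 14 steps between neighbours exceeded the larger SD: below hippocampus (anterior), below cerebellum and below visual cortex. Serpina3n was highest in medulla, at 5.62 ± 0.222 (n = 10), and lowest in cerebellum, at 1.26 ± 0.294. Corpus callosum was eleventh for Serpina3n, at 2.69 ± 0.334, clear of entorhinal cortex above it but not of thalamus below it. For this gene, 2 of the 14 steps exceeded the larger SD, below medulla and below entorhinal cortex. Caudate putamen was thirteenth for Serpina3n, at 1.83 ± 0.462.

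With age, Gfap rose strongly in the white matter. In corpus callosum its CPM ran from 171 over a median of 202 to 332.9 in the 10 libraries of 3 months, with a mean of 224 ± 56.5. The 12-month mean was 254 ± 37.9 (n = 9), and the 15-month mean 364 ± 111 (n = 10). It was 511 ± 172 (n = 10) in the 18-month group and 641 ± 223 (n = 11) in the 21-month group. At 26 months the 4 libraries had 784, 828, 909 and 1018 CPM, and at 28 months the 3 libraries had 979, 1321 and 1436 CPM. Every library of 26 and 28 months lay above every 3-month library, a 5.56-fold difference of means between 28 and 3 months. The slope fitted with edgeR's quasi-likelihood test, with sex as a term, was 0.095 ± 0.0077 log2 per month (SE, adjusted p = 5.36e-15 by Benjamini-Hochberg over all genes of the region). Calls below are at an adjusted p under 0.05. This slope was the 49th highest of 14432 genes. With the mean of the microglia markers as a covariate it was 0.032 and no longer passed (adjusted p = 0.169), and with astrocyte markers it was 0.051 (adjusted p = 0.00272). In these bulk libraries more astrocytes and more RNA per astrocyte cannot be told apart. The astrocyte marker sum went from 4891 to 5390 CPM at 3 months to 5769 to 6149 CPM at 28 months, and the microglia marker sum from 595 to 719 CPM to 1069 to 1490 CPM.

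Serpina3n started much lower and rose further. Its corpus callosum CPM ran from 4.03 over a median of 6.38 to 9.70 at 3 months, with a mean of 6.32 ± 1.56. The 12-month mean was 8.70 ± 5.08 and the 15-month mean 12.7 ± 7.71. The 18-month group had 17.4 ± 7.41, the 21-month group 26.0 ± 16.9 and the 26-month group 34.6 ± 5.26. At 28 months the 3 libraries had 33.9, 82.6 and 83.2 CPM, all above the 3-month libraries, so the means differ 10.5-fold while the oldest mice themselves differ widely. Single mice were already high at 15 months, where the highest reached 28.8 CPM beside a median of 8.55, and at 21 months, where the highest reached 65.9 CPM beside a median of 20.9. The slope was 0.130 ± 0.0128 log2 per month (adjusted p = 5.93e-12), the 25th highest of 14432 genes. With the microglia covariate it was 0.063 and no longer passed (adjusted p = 0.149), and with the astrocyte covariate it was 0.101 (adjusted p = 0.00305).

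**Figure D1:**
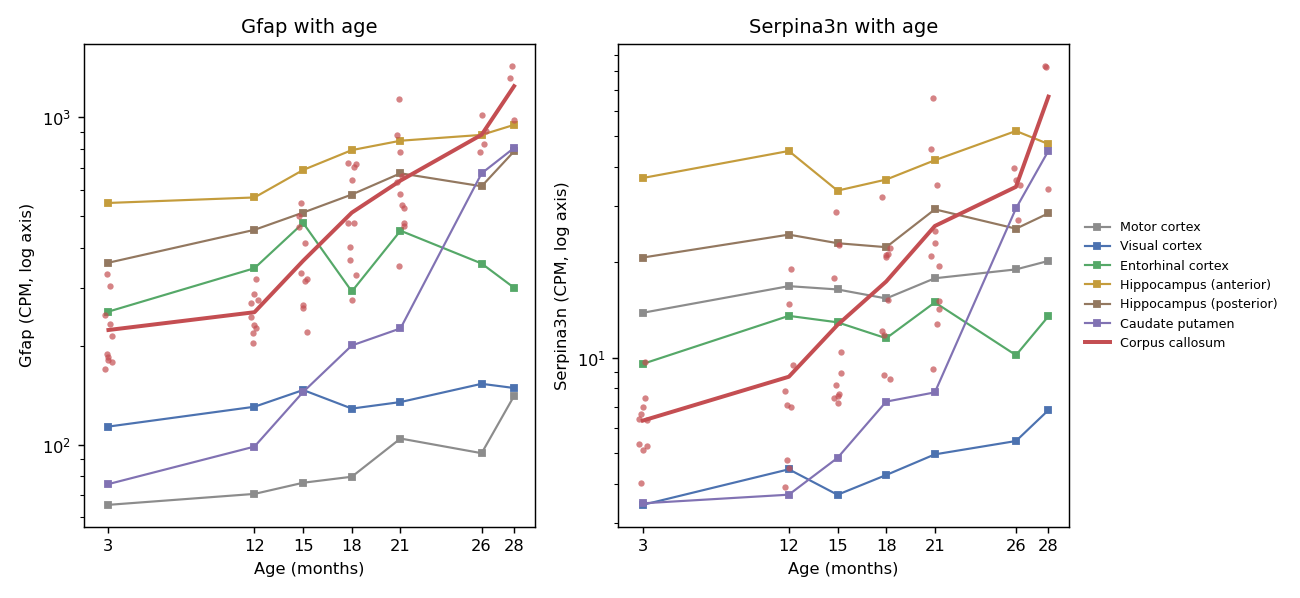
Gfap (left) and Serpina3n (right) in CPM on a log axis against age in months. Points are single corpus callosum libraries, the thick line is their mean, and thin lines are means of the 6 grey matter regions. Serpina3n in corpus callosum starts at 6.32 CPM, below 4 of the grey regions, and ends at 66.6 CPM, above all 6.

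The grey regions ran from near flat to steep. In motor cortex Gfap had 65.4 ± 17.5 CPM at 3 months (n = 10) and 141 ± 28.0 at 28 months (n = 3), a 2.15-fold difference with no overlap. Serpina3n there had 13.8 ± 1.17 and 20.2 ± 1.80 CPM, a 1.46-fold difference, also with no overlap. Gfap in visual cortex went from 114 ± 23.6 to 149 ± 34.0 CPM, and the groups overlapped. In hippocampus (anterior), where Gfap was highest in young mice at 548 ± 71.7 CPM, it reached 949 ± 99.5 CPM at 28 months with no overlap. Serpina3n in the same region had 36.9 ± 8.34 and 47.2 ± 11.1 CPM, and the groups overlapped.

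Before ageing, the members did not stand together in white against grey matter. At 3 months, the corpus callosum minus the mean of the 6 grey regions was 0.62 ± 0.108 log2 for Vim (SE, adjusted p = 1.13e-06) and 0.60 ± 0.243 for Aspg (adjusted p = 0.0278), both higher in white matter. Serpina3n was lower in white matter, at -0.72 ± 0.173 (adjusted p = 2.43e-04). Gfap differed by 0.34 ± 0.185, with an interval from -0.02 to 0.70, and did not pass the threshold (adjusted p = 0.100). Osmr, at -0.31 (adjusted p = 0.0601), Cd44, at -0.07 (adjusted p = 0.844), and Timp1, at -0.36 (adjusted p = 0.696), did not pass it either. These tissues differ broadly, as 63.4% of all 14452 genes tested passed in either direction, and 3 of 7 members is below that share. All 8 ependymal markers (median 2.82 log2) and all 9 choroid plexus epithelium markers (median 5.35 log2) were higher in corpus callosum in the same comparison. The level fit was not run with a marker covariate, so the part of such tissue in the member levels was not tested. With the mouse as a replicate block, Osmr passed at -0.31 (adjusted p = 0.0392) and Cd44 changed sign, to 0.02 (adjusted p = 0.964). Single 3-month mice decided several of these calls. Without mouse 21 or mouse 45, Aspg no longer passed, at 0.45 and 0.47 (adjusted p = 0.129 and 0.124). Without mouse 49 Gfap passed, at 0.42 (adjusted p = 0.0461), without mouse 17 or mouse 25 Osmr passed, at -0.34 and -0.36 (adjusted p = 0.0486 and 0.0307), and without mouse 41 Cd44 was at 0.03 (adjusted p = 0.923). The grey mean hides a wide range: against motor cortex alone Gfap was 1.74 higher in white matter (adjusted p = 1.09e-11) and Cd44 1.2 higher (adjusted p = 4.02e-07).

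The age slopes were steeper in corpus callosum than the mean of the 6 grey slopes for 6 of the 7 members. Not every grey region was shallower. In caudate putamen the slope was 0.127 for Gfap and 0.133 for Serpina3n, against 0.095 and 0.130 in corpus callosum. Vim had 0.051 in both. Cd44 and Osmr had 0.037 and 0.054 in caudate putamen, against 0.079 and 0.065. The corpus callosum slope minus the mean grey slope was 0.089 ± 0.0110 log2 per month for Serpina3n (adjusted p = 1.06e-10), 0.047 ± 0.0080 for Osmr (adjusted p = 1.08e-05) and 0.065 ± 0.0136 for Cd44 (adjusted p = 6.03e-04). It was 0.033 ± 0.0073 for Vim (adjusted p = 0.00108), 0.048 ± 0.0114 for Gfap (adjusted p = 0.00450) and 0.097 ± 0.0264 for Timp1 (adjusted p = 0.0200). Fitted alone, motor cortex, both hippocampal parts and caudate putamen had too few Timp1 reads to pass the filter on low counts. The grey side of the Timp1 difference thus rests on very few reads. Aspg differed by -0.0049, with an interval from -0.028 to 0.018 (adjusted p = 0.964). Of all 15385 genes tested, 1.31% had a higher slope in white matter, and the median difference was 9.8e-05 against 0.048 for the members. This fit had no mouse term, so libraries of 1 mouse entered it as independent.

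**Figure D2:**
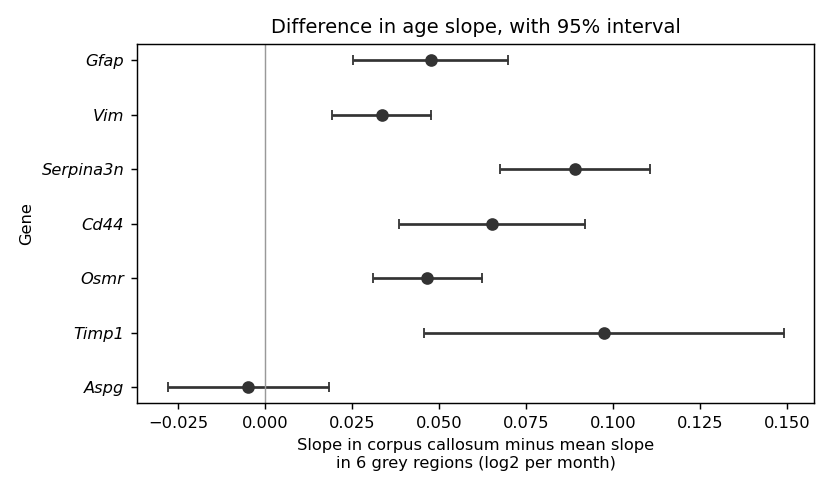
Difference in age slope, corpus callosum minus the mean of 6 grey regions, in log2 per month for each member, with the 95% interval as bars and 0 as a vertical line. Serpina3n lies at 0.089 and Aspg at -0.0049, the only member whose interval holds 0.

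Serpina3n kept this call in every alternative run but one. It failed when pons and medulla were added to the white side, at 0.020 (adjusted p = 0.0701), as did Osmr, at 0.0196 (adjusted p = 0.0525). In mice 16 to 56 alone, which cover 3, 15, 18 and 21 months, Serpina3n kept the call at 0.082 (adjusted p = 1.86e-04). The same mice gave 0.039 for Gfap (adjusted p = 0.487), 0.023 for Vim (adjusted p = 0.477), 0.059 for Cd44 (adjusted p = 0.124), 0.036 for Osmr (adjusted p = 0.0860) and 0.061 for Timp1 (adjusted p = 0.839), and none of these 5 passed. In males alone Gfap gave 0.048 (adjusted p = 0.0520), Vim 0.030 (adjusted p = 0.139) and Timp1 0.096 (adjusted p = 0.207). Timp1 also lost the call without mouse 58, at 0.085 (adjusted p = 0.107). Of the 13 microglia markers, 8 had a steeper slope in white matter too and none a shallower one. With their mean as a covariate, the Gfap difference was 0.0033 (adjusted p = 0.978), Vim 0.010 (adjusted p = 0.568) and Timp1 0.066 (adjusted p = 0.224). Under that covariate Serpina3n stood at 0.051 (adjusted p = 7.92e-04), Cd44 at 0.068 (adjusted p = 0.00194) and Osmr at 0.028 (adjusted p = 0.0392). With astrocyte markers as the covariate Gfap gave 0.028 (adjusted p = 0.0679) and Timp1 0.089 (adjusted p = 0.0583).

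Compared within each mouse, the 6 grey regions on average held more Serpina3n than corpus callosum in the youngest mice and less in the oldest. Each mouse was sampled at 1 age. The 3-month mean of corpus callosum, 2.69 log2 CPM, was above those of caudate putamen (1.83) and visual cortex (1.76). It was below those of the other grey regions. Among the 44 mice with corpus callosum and all 6 grey regions, the white minus grey difference at 3 months ran from -1.17 over a median of -0.72 to -0.32 log2 CPM, and 0 of 8 mice had more in white matter. White matter was higher in 1 of 4 mice at 12 months, in 3 of 9 at 15 months, in 7 of 8 at 18 months and in 7 of 10 at 21 months. It was higher in both mice of 26 months, at 1.00 and 1.19, and in 3 of 3 mice of 28 months, at 0.48, 1.92 and 2.08. In 2 of those 3 oldest mice the corpus callosum held more Serpina3n than each of the 6 grey regions.

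The other members moved the same way from different starts. Gfap was already higher in white matter in 7 of 8 mice at 3 months, with a mean of 0.41 ± 0.308 (SD, n = 8), and the mean reached 1.67 ± 0.462 at 28 months (n = 3). Vim went from 0.56 ± 0.362 to 1.68 ± 0.473, and Cd44 from 0.15 ± 0.322 to 1.81 ± 0.653. Osmr also changed sign, from -0.31 ± 0.321, with 1 of 8 mice above 0, to 1.23 ± 0.325, with 3 of 3. Timp1 went from -0.62 ± 0.551 to 0.88 ± 0.571, but its low counts make single values coarse. Aspg stayed level, at 0.57 ± 0.745 and 0.35 ± 0.844.

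**Figure D3:**
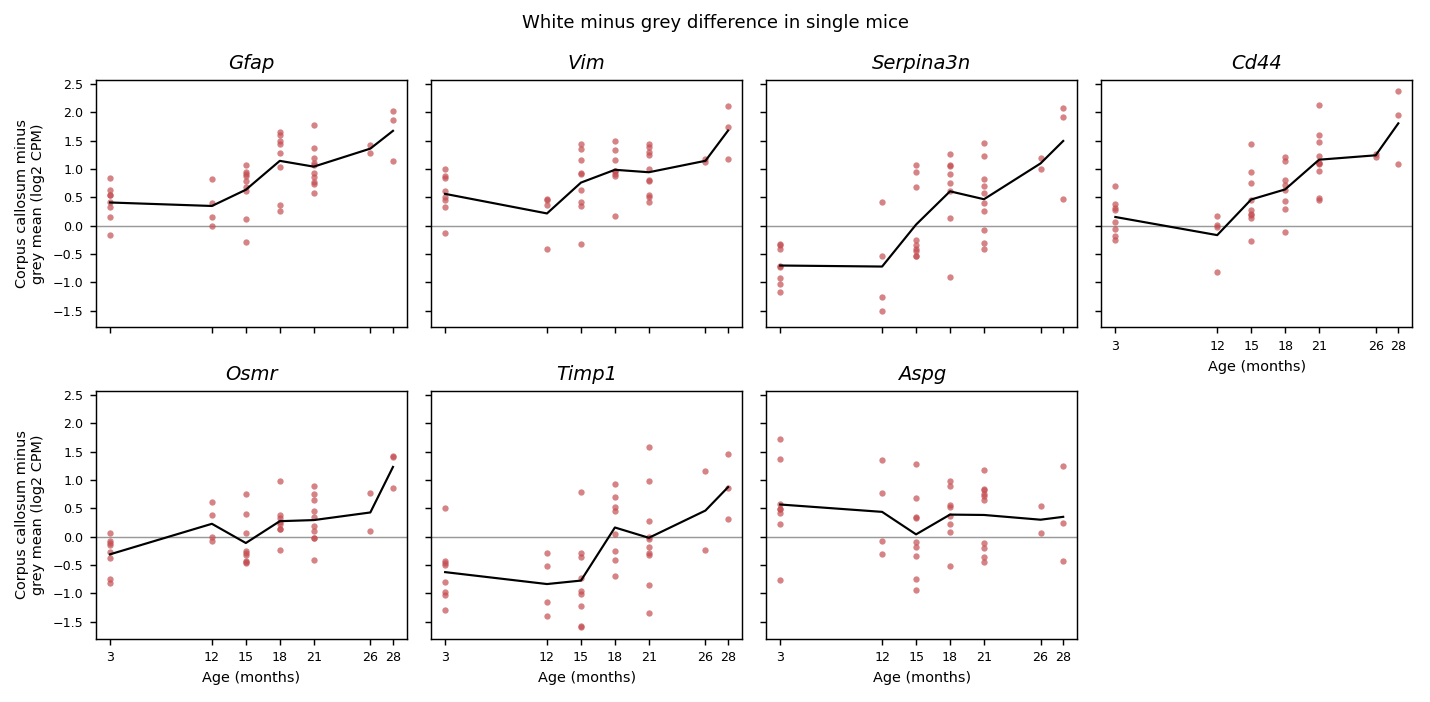
Corpus callosum minus the mean of the 6 grey regions in log2 CPM against age in months, 1 panel for each member, with 1 point for each of 44 mice and a line through the means. Serpina3n lies below 0 in all 8 mice of 3 months and above 0 in all 3 mice of 28 months, while Aspg shows no trend.

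In corpus callosum Vim and both receptor genes rose too. Vim had 23.8 to 67.2 CPM at 3 months, with a mean of 38.9 ± 12.3 (n = 10), and 77.6, 112 and 139 CPM at 28 months. These groups did not overlap, and the slope was 0.051 ± 0.0078 log2 per month (adjusted p = 1.05e-06). Cd44 had 2.62 to 4.74 CPM at 3 months, with a mean of 3.98 ± 0.619, and 10.5, 17.4 and 23.2 CPM at 28 months. Its oldest libraries were all at least 10.5 CPM, and the slope was 0.079 ± 0.0089 (adjusted p = 3.07e-10). Osmr had 2.41 to 7.86 CPM at 3 months, with a mean of 4.53 ± 1.88, and 15.2, 15.3 and 17.3 CPM at 28 months. The groups did not overlap, and the slope was 0.065 ± 0.0077 (adjusted p = 1.67e-09). All 3 lost the call with the astrocyte covariate, at 0.019 for Vim (adjusted p = 0.420), 0.027 for Cd44 (adjusted p = 0.225) and 0.030 for Osmr (adjusted p = 0.142). They lost it with the microglia covariate too, at 0.013 for Vim (adjusted p = 0.745), -0.0047 for Cd44 (adjusted p = 0.933) and 0.023 for Osmr (adjusted p = 0.404).

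The lowly expressed members behaved differently from each other. Timp1 had no read in 3 of the 10 corpus callosum libraries of 3 months, where the mean was 0.215 ± 0.227 CPM. At 28 months it had 0.943, 1.02 and 1.79 CPM, which rest on 7, 4 and 18 reads, and the slope was 0.148 ± 0.0280 (adjusted p = 6.57e-05). The groups did not overlap, though a few reads decide each value. The slope was not called with the astrocyte covariate, at 0.102 (adjusted p = 0.207), or the microglia covariate, at 0.061 (adjusted p = 0.607). Aspg had 0.336 to 3.56 CPM at 3 months, with a mean of 1.91 ± 0.862, and 2.02, 3.57 and 5.36 CPM at 28 months. Those groups overlapped, and its slope of 0.032 ± 0.0125 did not pass (adjusted p = 0.0689). It passed with the choroid plexus marker covariate, at 0.034 (adjusted p = 0.0344), and without the 6 libraries that stand apart, at 0.035 (adjusted p = 0.0386).

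Across the 15 regions, no member fell with age and each rose in at least 5 regions. Gfap rose in 12 regions. Over all 15, called or not, its slopes ran from 0.0070 to 0.127 log2 per month, with a median of 0.066. Serpina3n rose in 11, and its slopes over all 15 ran from 0.013 to 0.133, with a median of 0.031. Vim and Aspg each rose in 8 regions, Cd44 and Osmr each in 7, and Timp1 in 5 of the 9 regions where it passed the filter on low counts. Aspg passed that filter in 14 regions and the other members in all 15. Together the members had 98 tested slopes, of which 58 were called. The share of all genes that rose ran from 0.0758% in entorhinal cortex to 11.1% in the choroid plexus dissections.

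The count of members called differed by region. It was 7 of 7 in the choroid plexus dissections, where 11.1% of all genes rose, and 6 of 7 in corpus callosum, where 9.06% rose. Pons and medulla also had 6 of 7, against 3.94% and 6.33% of all genes. Cerebellum had 5 of 7 (9.45% of all genes), hippocampus (anterior) 5 of 6 (5.76%) and caudate putamen 5 of 6 (7.32%). Hippocampus (posterior) had 4 of 6 (4.00%) and the subventricular zone 4 of 5 (4.50%). Thalamus had 3 of 6 (2.32%) and hypothalamus 3 of 7 (3.88%). Motor cortex had 2 of 6, where 8.00% of all genes rose. Visual cortex, where 5.13% rose, had 1 of 7, Serpina3n, and so did the olfactory bulb, where 7.31% rose. In entorhinal cortex 0 of 7 members and 0.0758% of all genes were called. The median member slope was highest in corpus callosum, at 0.079, against a median of -6.0e-04 over all genes there.

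**Figure D4:**
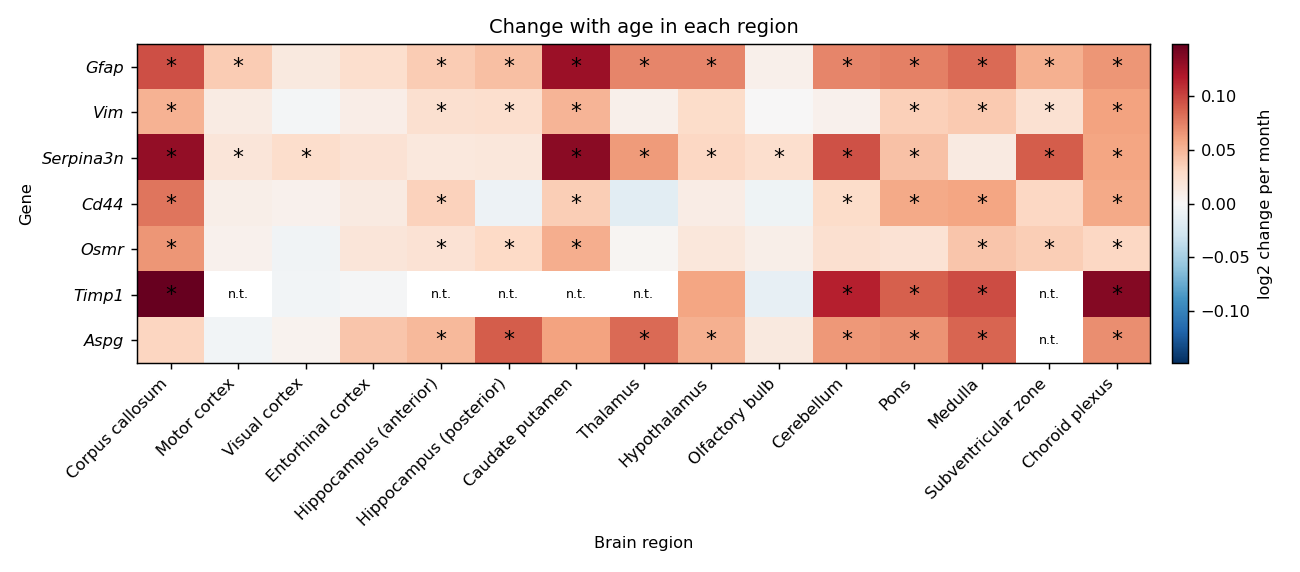
Age slope in log2 per month for the 7 members (rows) in the 15 regions (columns). Red is a rise, blue a fall, a star marks an adjusted p under 0.05 and n.t. marks a gene that did not pass the filter on low counts. Gfap carries 12 stars and Serpina3n 11, and no blue cell carries one.

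Microglia markers rose beside the members. Of 13 such markers, at least 11 rose in 11 of the regions, and 12 rose in corpus callosum, but 5 rose in motor cortex, 4 in visual cortex, 4 in the olfactory bulb and 0 in entorhinal cortex, the regions where at most 2 members rose. With their mean as a covariate, Gfap rose in 2 regions, Serpina3n in 4, Vim, Cd44 and Aspg in 1 each, and Osmr and Timp1 in 0. Under that covariate 3 member slopes passed with a negative sign: Gfap in medulla, at -0.077 (adjusted p = 0.0225), Cd44 in medulla, at -0.076 (adjusted p = 0.00657), and Serpina3n in hippocampus (posterior), at -0.038 (adjusted p = 0.0282). The microglia markers rise with age themselves, so this covariate overlaps the age term. The SE of the Gfap slope in corpus callosum was 0.0077 without it and 0.0136 with it. A negative slope under it is thus not a measured fall with age. Astrocyte markers moved less: 10 of 15 rose in corpus callosum and at most 4 in any other region. In males alone Vim rose in 5 regions, Cd44 in 4, Osmr in 3 and Timp1 in 2. The share of all genes called is not given for these alternatives, so a loss particular to the members cannot be told from a general one.

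Caudate putamen, a grey region crossed by fibre bundles, had the largest ratios of 28-month to 3-month means for Gfap and Serpina3n among the 15 regions. Gfap there ran from 8.64 over a median of 40.8 to 201 CPM in the 9 libraries of 3 months, with a mean of 75.7 ± 76.1. The 5 libraries of 26 months had 198, 400, 645, 795 and 1335 CPM, and the 3 of 28 months had 498, 866 and 1055 CPM. The oldest group did not overlap the youngest, the means differed 10.7-fold, and the slope was 0.127 ± 0.0213 (adjusted p = 1.75e-05). Serpina3n ran from 2.16 to 5.99 CPM at 3 months, with a mean of 3.47 ± 1.27, and had 31.0, 51.6 and 52.2 CPM at 28 months, a 13.0-fold difference with no overlap. Its slope was 0.133 ± 0.0160 (adjusted p = 5.84e-09), the 9th highest of 13758 genes there.

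Timp1 in caudate putamen did not pass the filter, yet 0 reads were counted in all 9 libraries of 3 months, 62753903 reads in all, which allows up to 0.0478 CPM. At 28 months its mean was 1.82 ± 1.22 CPM (n = 3), from 0.713 to 3.14, and this mean was 38.2 times that floor of 3 reads over the group. That ratio leaves out the spread of the 28-month libraries, and the pair was not tested. Other tissue moved with these values. The oligodendrocyte marker sum ran from 16670 to 22930 CPM in the 28-month caudate libraries, against 5729 to 21820 CPM at 3 months, and the choroid plexus marker sum from 101 to 3240 CPM, against a median of 25.4 CPM and a highest of 3149 CPM at 3 months. The part of the dissection in these results was not tested. With the choroid plexus markers as a covariate 57 of the 58 called member slopes over all regions kept the call.

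Elsewhere the youngest and oldest groups parted for some members only. Every 28-month library lay above every 3-month library in 10 of 15 regions for Gfap, 8 for Serpina3n, 7 for Aspg, 6 for Timp1, 4 for Vim, 3 for Osmr and 2 for Cd44. Over all gene and region pairs that passed the filter on low counts, 3.87% did so. The member counts also hold pairs that did not pass it. These are Timp1 in hippocampus (anterior), caudate putamen and the subventricular zone, and Aspg in the subventricular zone. Pons stood high for Gfap, with 437 ± 239 CPM at 3 months (n = 9) and 1348 ± 300 at 28 months. Cerebellum had the least Serpina3n in young mice, 2.16 ± 0.524 CPM, and 8.87 ± 4.27 at 28 months. In the subventricular zone Serpina3n went from 11.1 ± 3.71 to 55.5 ± 9.89 CPM, a 5.02-fold difference with no overlap. Aspg, level in white against grey matter, went from 2.82 ± 1.58 to 9.31 ± 0.229 CPM in pons and from 0.801 ± 0.346 to 3.63 ± 1.71 CPM in hippocampus (posterior), both with no overlap.

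**Figure D5:**
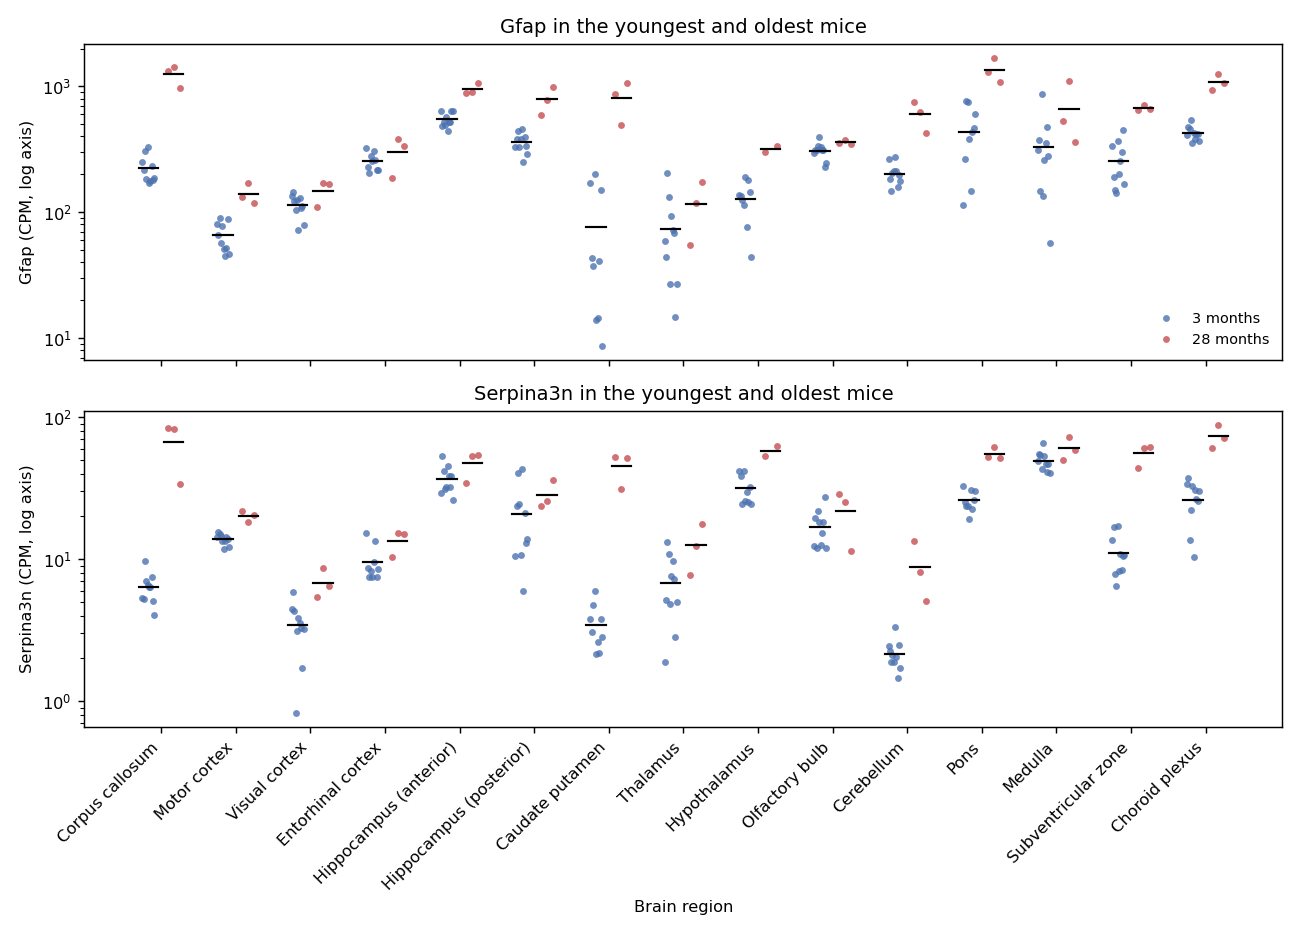
Gfap (top) and Serpina3n (bottom) in CPM on a log axis in each of the 15 regions, with blue points for libraries of 3 months, red points for libraries of 28 months and a bar at each mean. The groups are apart in corpus callosum and caudate putamen for both genes, and overlap in visual cortex, entorhinal cortex, thalamus, olfactory bulb and medulla for both.

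The rise of Gfap was not steady in every region. In thalamus its mean was 74.1 ± 57.7 CPM at 3 months, 252 ± 144 at 21 months (n = 11) and 116 ± 59.9 at 28 months, and in medulla 327 ± 229, 1168 ± 403 and 662 ± 386 CPM. Against 3 months, Gfap in thalamus was higher at 21 months by 1.75 ± 0.408 log2 (adjusted p = 0.00616), while at 28 months the difference was 0.69 ± 0.587 (adjusted p = 0.758). Serpina3n in thalamus had 6.83 ± 3.60, 19.8 ± 8.51 and 12.6 ± 5.07 CPM at the same ages. The 21-month group holds both sexes and the 28-month group males only. Sex was a term of the fit, but that term does not cover a slope that differs by sex. The part of sex in the lower 28-month values was not tested. The Gfap slope in thalamus was lower in males by -0.092 ± 0.0404 log2 per month at 3 to 21 months, which was not called. In males alone the thalamus slope was 0.033 for Gfap (adjusted p = 0.560) and 0.035 for Serpina3n (adjusted p = 0.293), and neither passed.

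The members parted from their 3-month level mostly from 18 months on. Of 98 pairs of member and region, 2 were higher at 12 months, when 0.678% of all gene and region pairs were, and 6 at 15 months, against 0.657%. At 18 months 21 pairs were higher, against 1.54%, and at 21 months 42, against 3.53%. The counts stayed near that level at 26 months, with 43 pairs against 2.38%, and at 28 months, with 42 against 3.30%. All 6 contrasts share the 3-month libraries, and those at 12, 26 and 28 months also set different number blocks of mice against each other. In corpus callosum Gfap was the first to pass, at 15 months, by 0.69 ± 0.170 log2 (adjusted p = 0.0198). Serpina3n, Cd44 and Osmr followed at 18 months, by 1.48 ± 0.323, 0.66 ± 0.199 and 0.60 ± 0.179, Vim at 21 months by 0.67 ± 0.181 and Timp1 at 26 months by 2.61 ± 0.725.

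The earliest pairs lay outside the corpus callosum. At 12 months Serpina3n in pons was higher by 0.49 ± 0.114 (adjusted p = 0.0302) and Aspg in hippocampus (posterior) by 1.31 ± 0.272 (adjusted p = 0.0314). Without mouse 1 no pair was higher at 12 months, and without mouse 17 there was 1. The 3 falls seen at any age were all in the olfactory bulb: Gfap by -0.22 ± 0.0593 at 12 months (adjusted p = 0.0192) and -0.21 ± 0.0605 at 15 months (adjusted p = 0.0318), and Cd44 by -0.88 ± 0.236 at 12 months (adjusted p = 0.0189).

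Few sex differences were called, and each one called was lower in males. Among 95 tested pairs of member and region at 3 to 21 months, 5 differed in level, against 2.71% of all pairs. Called or not, 67 of the 95 pairs were lower in males. The mice are the same in every region, so these pairs are not independent. Gfap in hypothalamus ran from 44.3 over a median of 370 to 820 CPM in 24 female libraries and from 68.4 over 188 to 324 CPM in 25 male libraries. The ranges overlapped, and males were lower by -0.78 ± 0.176 log2 (adjusted p = 0.00502). Osmr in medulla had a mean of 5.35 ± 2.67 CPM in females and 3.40 ± 1.41 in males (adjusted p = 0.00705). The others were Vim in the choroid plexus dissections (adjusted p = 0.0159) and in hippocampus (anterior) (adjusted p = 0.0342), and Timp1 in the choroid plexus dissections (adjusted p = 0.0465). Without the 12-month mice 2 pairs were called.

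The age slope was called different between the sexes in 1 of 95 pairs, against 0.0727% of all pairs. Called or not, the male slope was the lower one in 85 of the 95 pairs, which share mice. Osmr in cerebellum rose less in males than in females, by -0.099 ± 0.0226 log2 per month (adjusted p = 0.0127), and without mouse 40 no pair was called.

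The genes that surround the members in their pathways moved with some of them and not with others. Of 22 tested genes for gp130 receptors and STAT3 signalling, 8 rose in corpus callosum and 0 fell, with a median slope of 0.0066 log2 per month. Stat3, the factor downstream of Osmr, rose by 0.023 ± 0.0027 there (adjusted p = 2.00e-09), from 58.3 ± 6.30 CPM at 3 months to 90.2 ± 9.18 at 28 months, and in 10 of 15 regions. Socs3, the feedback inhibitor that STAT3 induces, rose by 0.067 ± 0.0105 (adjusted p = 2.01e-06), from 1.86 ± 0.708 to 6.395 ± 3.01 CPM, and in 8 regions. Il6st, the gp130 subunit itself, rose in 1 region and fell in 1, and Lifr, a related receptor, rose in 0 and fell in 1. Osm, the ligand of Osmr, passed the filter in 0 regions.

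The intermediate filament partners of Gfap and Vim were mostly level. Of 15 such genes, 1 rose and 1 fell in corpus callosum. Nes, the filament gene of immature astrocytes and progenitors, was called in 0 of 15 regions, with 7.33 ± 2.37 CPM at 3 months and 7.31 ± 0.961 at 28 months in corpus callosum. Synm, a filament linker, rose in 3 regions, by 0.016 ± 0.0033 in corpus callosum (adjusted p = 3.29e-04).

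Among 18 tested genes for CD44 ligands and hyaluronan, 3 rose in corpus callosum and 5 fell. Spp1, which encodes the CD44 ligand osteopontin, rose by 0.090 ± 0.0089 (adjusted p = 6.52e-12), from 6.12 ± 0.776 to 26.9 ± 5.00 CPM. The hyaluronan synthases Has1 and Has3 were called in 0 of 15 regions each, and Has2 passed the filter in none.

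Of the 17 tested metalloproteinases and inhibitors 2 rose and 2 fell. Mmp12, a macrophage elastase, rose in 7 of the 8 regions where it was tested, and in corpus callosum went from 0.0262 ± 0.0829 to 2.23 ± 0.575 CPM. Timp2 rose in 3 regions, Timp3 in 1 and Timp4 in 0, against 5 of 9 for Timp1. The close relatives of Serpina3n rose nowhere: Serpina3g was tested in 7 regions, rose in 0 and fell in 1, Serpina3c was called in 0 of 2, Serpina3f fell in the 1 region where it was tested, and Serpina3i, Serpina3k and Serpina3m passed the filter in none. Of the enzymes related to Aspg, Asns rose in 0 of 15 regions and fell in 1, and Asrgl1 rose in 0 of 15.

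A wider panel of 34 other reactive astrocyte genes split in the same tissue. In corpus callosum 18 of 33 tested rose and 2 fell, with a median slope of 0.040, and 10 had a steeper slope in white than in grey matter with none shallower. C4b, a complement component, rose by 0.170 ± 0.0079 (adjusted p = 4.53e-25), from 25.3 ± 7.06 CPM at 3 months to 481 ± 141 at 28 months. C3, the central complement protein, rose by 0.169 ± 0.0188 (adjusted p = 3.04e-10), from 0.923 ± 0.607 to 23.6 ± 12.2 CPM, and H2-D1, a class I antigen-presenting gene, by 0.074 ± 0.0066 (adjusted p = 2.05e-13). Several of these genes, C3 among them, are also made by microglia. In motor cortex 4 of 26 panel genes rose and in entorhinal cortex 0 of 30.

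Region accounted for 61.7% of the sum of squares of Gfap on the log2 CPM scale, 73.8% of Serpina3n and 72.7% of Vim, near the median of 70.5% over 14180 genes, and for 57.7% of Cd44, 42.3% of Aspg, 38.5% of Osmr and 28.6% of Timp1, where the residual was 46.2%. Age accounted for 11.6% of Gfap, 7.33% of Serpina3n, 11.8% of Aspg and 10.0% of Osmr, against a median of 0.567% over those genes. Age by region added 13.3% for Timp1 and between 5.23% and 9.04% for the other members, against a median of 3.60%. Sex accounted for at most 0.466%, and the mouse for 8.90% of Osmr and at most 3.76% of the others.

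Genes were also ranked by likeness to each member. The measure was the correlation of change from 3 months over 90 points, the 15 regions at 6 later ages, which share mice and the 3-month libraries. Gfap was most like C4b (r = 0.895), Grn (r = 0.820) and Lyz2 (r = 0.819) among 11958 genes. Serpina3n was most like Csf1 (r = 0.836), B2m (r = 0.830) and Lgals3bp (r = 0.798), and Vim like S100a6 (r = 0.873) and Cnn3 (r = 0.858). Timp1 was most like Arpc1b (r = 0.811), Osmr like Slc14a1 (r = 0.772), Cd44 like Pik3ap1 (r = 0.770) and Aspg like Gpnmb (r = 0.743). Among the members themselves Gfap and Timp1 had the highest likeness (r = 0.797), then Gfap and Serpina3n (r = 0.770), while Serpina3n and Cd44 had the lowest (r = 0.446).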

How the data were processed

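The deposited values are raw read counts per gene made by the authors, 1 column for each library, from unstranded Smart-Seq2 and Nextera XT libraries, per the labels' protocols. The submitters' processing notes name Trim Galore 0.3.7, STAR 2.5.3a, DESeq2 and the build GRCm38 without their roles. The counting program and annotation are not given in the sources used here. Reads carry no molecular identifiers, so copies made by amplification are counted as reads.

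Age slopes were fitted in each region with edgeR 4.0.16 (R 4.3.3), using TMM factors, filterByExpr, a quasi-likelihood test and sex as a term, on all genes. P-values were adjusted by Benjamini-Hochberg over all genes of a contrast, with a threshold of 0.05. White minus grey slopes came from a fit of all ages over corpus callosum and the 6 grey regions (396 libraries). The levels came from a separate fit of the 3-month libraries of these regions (68 libraries). Later ages came from contrasts with 3 months, and sex differences from the ages 3 to 21 months. Levels are CPM of the library total, and log2 CPM has a prior count of 2. DESeq2 1.42.0, other scaling, filters, regions, mice and covariates were alternatives. Figures were drawn with matplotlib 3.10.9, and level summaries came from pandas 2.3.3 on Python 3.11.15.

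Libraries of 1 mouse from different regions are paired by the animal. Their deviations from the group means correlated at -0.042 to 0.50 over 58 pairs, with a median of 0.243 over 8514 genes. The main white minus grey fits had no mouse term, so their SEs and p-values do not take this pairing into account. The mouse as a block was an alternative. The members and lists were chosen with earlier results of these data known. Named genes were the 7 members, up to 3 genes of each list with the largest slope in corpus callosum that passed there at a mean of at least 5 CPM, list genes tied directly to a member, and the genes most like each member. C4b, C3 and H2-D1 come from that list rule. Promoter windows are RefSeq's, and 7 of 7 members matched.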

Additional observations from a re-analysis of the deposited data

Results flagged for a closer look

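Among 68 groups of 4 to 10 libraries, 4 had 1 value far from the rest, and chance gives about 1 in 20. Gfap in motor cortex at 26 months was apart in mouse 2, at 103 CPM. Gfap in medulla at 3 months was apart in mouse 29, at 871 CPM. Vim in corpus callosum at 3 months was apart in mouse 33, at 67.2 CPM, and Timp1 in corpus callosum at 26 months in mouse 8, at 0.567 CPM.

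The age slope differed between white and grey matter, by the test of the difference itself, for 6 members: by 0.0477 log2 per month for Gfap, 0.0335 for Vim, 0.0891 for Serpina3n, 0.0652 for Cd44, 0.0466 for Osmr and 0.0974 for Timp1. The slope of Osmr in cerebellum differed between males and females by -0.0992.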

How the results depend on the processing

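White minus grey slopes lost their call in males alone for Gfap (0.0475), Vim (0.0299) and Timp1 (0.0957). They lost it in mice 16 to 56 alone for Gfap (0.0388), Vim (0.0229), Cd44 (0.0589), Osmr (0.0357) and Timp1 (0.0607). With astrocyte markers as a covariate the call was lost for Gfap (0.0282) and Timp1 (0.0888), and with microglia markers for Gfap (0.00326), Vim (0.0101) and Timp1 (0.066). With pons and medulla as white matter it was lost for Serpina3n (0.02) and Osmr (0.0196), and with no filter for Timp1 (0.0894). Leaving out single mice gave 0.0848 to 0.0995 for Timp1. The Aspg difference, never called, changed sign against motor cortex alone (0.0418), with pons and medulla (0.0187) and without caudate putamen (0.00208). The causes were not tested.

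Levels at 3 months changed against motor cortex alone for Gfap (1.74), Cd44 (1.2), Osmr (0.209) and Aspg (-0.222). Gfap passed with 9 grey regions (0.49), and without caudate putamen Osmr (-0.332) and Timp1 (-1.13) passed. Leaving out single mice gave 0.301 to 0.421 for Gfap, -0.145 to 0.0329 for Cd44, -0.356 to -0.243 for Osmr and 0.454 to 0.717 for Aspg. The replicate block of mouse gave -0.307 for Osmr and 0.0156 for Cd44 and changed no other call.

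With the microglia covariate the members rose in fewer regions: Gfap 2, Vim 1, Serpina3n 4, Cd44 1, Osmr 0, Timp1 0 and Aspg 1. The microglia markers rise with age in most regions, so this covariate overlaps the age term. Males alone gave Vim 5, Cd44 4, Osmr 3 and Timp1 2, mice 16 to 56 alone Vim 5, Osmr 3 and Timp1 3, and the astrocyte covariate Vim 5. Under the microglia covariate slopes turned negative for Gfap in entorhinal cortex (-0.00944), caudate putamen (-0.0186), thalamus (-0.0549), hypothalamus (-0.0168), cerebellum (-0.00264) and medulla (-0.0772). They did so for Vim in hippocampus (anterior) (-0.000373), caudate putamen (-0.0219), pons (-0.0217), medulla (-0.0139) and subventricular zone (-0.00792). Serpina3n did so in hippocampus (posterior) (-0.0381), thalamus (-0.0186), hypothalamus (-0.0175) and cerebellum (-0.00574). Cd44 did so in corpus callosum (-0.00473), caudate putamen (-0.00435), pons (-0.0402), medulla (-0.0763) and choroid plexus (-0.0148). The others were Osmr in hippocampus (posterior) (-0.000865), Timp1 in medulla (-0.0512), and Aspg in corpus callosum (-0.00208) and medulla (-0.029). In mice 16 to 56 alone Gfap in olfactory bulb was -0.00154.

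DESeq2 called 10 pairs at 15 months. Leaving out single mice gave 0 to 2 pairs at 12 months and 0 to 1 pair for the slope by sex. Pairs that differed in level by sex numbered 2 without the 12-month mice and 0 in those mice alone. At the later ages leaving out mice was run for 9 mice, and the other planned ones were not run. The fits without 6 libraries that stand apart, without caudate putamen and with microglia markers for the white minus grey slope were chosen after seeing the data. The depth limits Timp1 most, where a few reads decide a value.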
